A study of Mus musculus with 2 samples.

Results

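Genes that control the passage of cells from G1 into S phase were examined for R-loop peaks in primary neural stem/progenitor cells (NSPCs). The 10 genes encode the D-type cyclins (Ccnd1, Ccnd2, Ccnd3), the E-type cyclins (Ccne1, Ccne2), the kinases that partner the D-type cyclins (Cdk4, Cdk6), a pair of kinase inhibitors (Cdkn1a, Cdkn1b) and the transcription factor E2f1. They were taken by symbol from the GENCODE M1 annotation of the mm9 genome and are 10 of its 22367 protein-coding genes. A peak was assigned to a gene when it overlapped the annotated limits of the gene or lay within 2 kb of them. By this rule 11 of the 22132 peaks in the deposited list were assigned, and all 11 overlapped the gene itself.

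NSPCs were cultured from the frontal brain of C57BL/6 mice at postnatal day 7. The paper states that DRIP-seq was done on NSPCs under mild replication stress. This came from 0.5 μM aphidicolin, a DNA polymerase inhibitor that slows replication forks, given for 2 days before DRIP. The sample labels name no treatment. There is no list from untreated NSPCs, so the peaks cannot be compared with an unstressed state. For DRIP-seq, restriction enzymes cut the genomic DNA, the antibody S9.6 captures RNA:DNA hybrids and the captured fragments are sequenced. An input library without antibody was not used here. Each peak is given by its position alone, without height, read count or strand. It is 1 list, made from cultured cells in 3 biological replicates with 3 DRIP reactions each, without separate values for the replicates, so the values below have no replicate error, the sequencing depth behind a peak is unknown, and a hybrid present in few cells cannot be told apart from one present in many. Positions alone do not allow the cell type to be checked against marker genes. No test was made, and counts are set beside those over all protein-coding genes.

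In G1, mitogen signals raise the D-type cyclins, which bind CDK4 or CDK6 and phosphorylate the retinoblastoma protein. This releases E2F transcription factors, which activate the E-type cyclins and other genes needed for DNA replication, and cyclin E with CDK2 completes the step. The inhibitors p21 and p27 oppose these kinases. The length of G1 is known to bear on whether a neural progenitor divides again or differentiates. An R-loop forms where RNA pairs with the template strand of DNA and leaves the other strand single. G-rich RNA pairs stably with its template, which is why a surplus of G relative to C in the coding strand, called GC skew, is a known feature of R-loop forming DNA.

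The sequences below are examples picked for their surplus of G and do not stand for the composition of whole peaks. Each is the stretch of 60 bases, free of any annotated exon, in which G most outnumbered C on the coding strand within a peak, and capitals mark runs of 3 or more G. They were read 5′ to 3′ from the mm9 genome. The Ccnd2 stretch lies upstream of the transcription start site (TSS) at chr6:127101128-127101187 on the minus strand and holds 38 G and 2 C. The Cdkn1b stretch lies in an intron at chr6:134871719-134871778 on the plus strand and holds 40 G and 2 C. The Cdk4 stretch lies in an intron at chr10:126501777-126501836 on the plus strand. The E2f1 stretch lies upstream of the TSS at chr2:154395926-154395985 on the minus strand. The Ccnd1 stretch lies in an intron at chr7:152122140-152122199 on the minus strand, inside the widest of the 3 peaks of that gene. These peaks also held stretches rich in C, picked in the same way for C. They had 38 C and 6 G in Ccnd2, 28 C and 8 G in Cdkn1b, and 34 C and 9 G in Cdk4. In E2f1 it was 35 C and 10 G, and in this Ccnd1 peak 31 C and 5 G.
Ccnd2: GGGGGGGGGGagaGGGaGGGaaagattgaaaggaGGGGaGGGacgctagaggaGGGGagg
Cdkn1b: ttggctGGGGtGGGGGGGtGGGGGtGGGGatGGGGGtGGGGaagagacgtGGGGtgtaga
Cdk4: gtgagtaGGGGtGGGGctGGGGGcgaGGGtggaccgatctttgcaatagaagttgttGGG
E2f1: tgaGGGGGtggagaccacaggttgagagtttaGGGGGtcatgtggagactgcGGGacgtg
Ccnd1: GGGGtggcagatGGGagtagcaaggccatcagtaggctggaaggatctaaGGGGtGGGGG

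The E-type cyclin genes had no peak, and their stretches were taken by the same measure from the first 2 kb of the gene to show that G clusters also occur where no peak was called. The Ccne1 stretch lies in an intron at chr7:38891729-38891788 on the minus strand, with 34 G, 6 C and 6 runs. The Ccne2 stretch lies in an intron at chr4:11118785-11118844 on the plus strand, with 39 G, 12 C and 8 runs.
Ccne1: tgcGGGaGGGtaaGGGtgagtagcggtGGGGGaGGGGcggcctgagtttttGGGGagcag
Ccne2: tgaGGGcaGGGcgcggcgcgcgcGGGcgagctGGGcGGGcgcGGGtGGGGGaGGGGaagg

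Over their whole width, the peaks of Cdk6 held more C than G on the coding strand. The stretches in which C most outnumbered G are therefore given, and capitals mark runs of 3 or more C. They lie in introns at chr5:3362900-3362959 and chr5:3479898-3479957, both on the plus strand.
Cdk6 peak 1: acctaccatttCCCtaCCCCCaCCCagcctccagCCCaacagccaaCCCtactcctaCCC
Cdk6 peak 2: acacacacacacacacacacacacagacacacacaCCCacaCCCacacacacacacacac

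R-loop peaks overlapped 8 of the 10 genes, and Ccne1 and Ccne2 were the exceptions. Over all protein-coding genes 39.6% overlapped a peak, and 43.1% had a peak within 2 kb. The TSS lay inside a peak in Ccnd2, Cdk4, Cdkn1b and E2f1, or 4 of 10, compared to 14.9% of protein-coding genes. The transcription end site (TES) lay inside a peak in Ccnd2, Ccnd3, Cdk4 and Cdkn1a, also 4 of 10, compared to 10.9%. Ccnd2 and Cdk4 were covered over their whole length, and 1.81% of protein-coding genes were. Longer genes overlapped peaks more often across the genome, and the genes were therefore also counted by length. Of the 5 genes under 10 kb 4 overlapped a peak, where 22.2% of protein-coding genes of that length did. Between 10 and 30 kb it was 2 of 3, beside 44.1%, and over 30 kb 2 of 2, beside 56.8%. With 10 genes these counts describe the genes named and are not a rate for G1 control genes in general. The genes were also chosen with earlier results of these data known. All shares, here and for the lists below, include protein-coding genes that are not transcribed in NSPCs. The paper found peaks almost only in genes with active or ambiguous transcription. A share over transcribed genes alone was not computed here. In the paper, which used RefSeq genes, more of the active genes had an R-loop peak than had none. The share of active genes with a peak was thus above 39.6%. The shares for TSS and TES could be higher too.

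**Figure D1:**
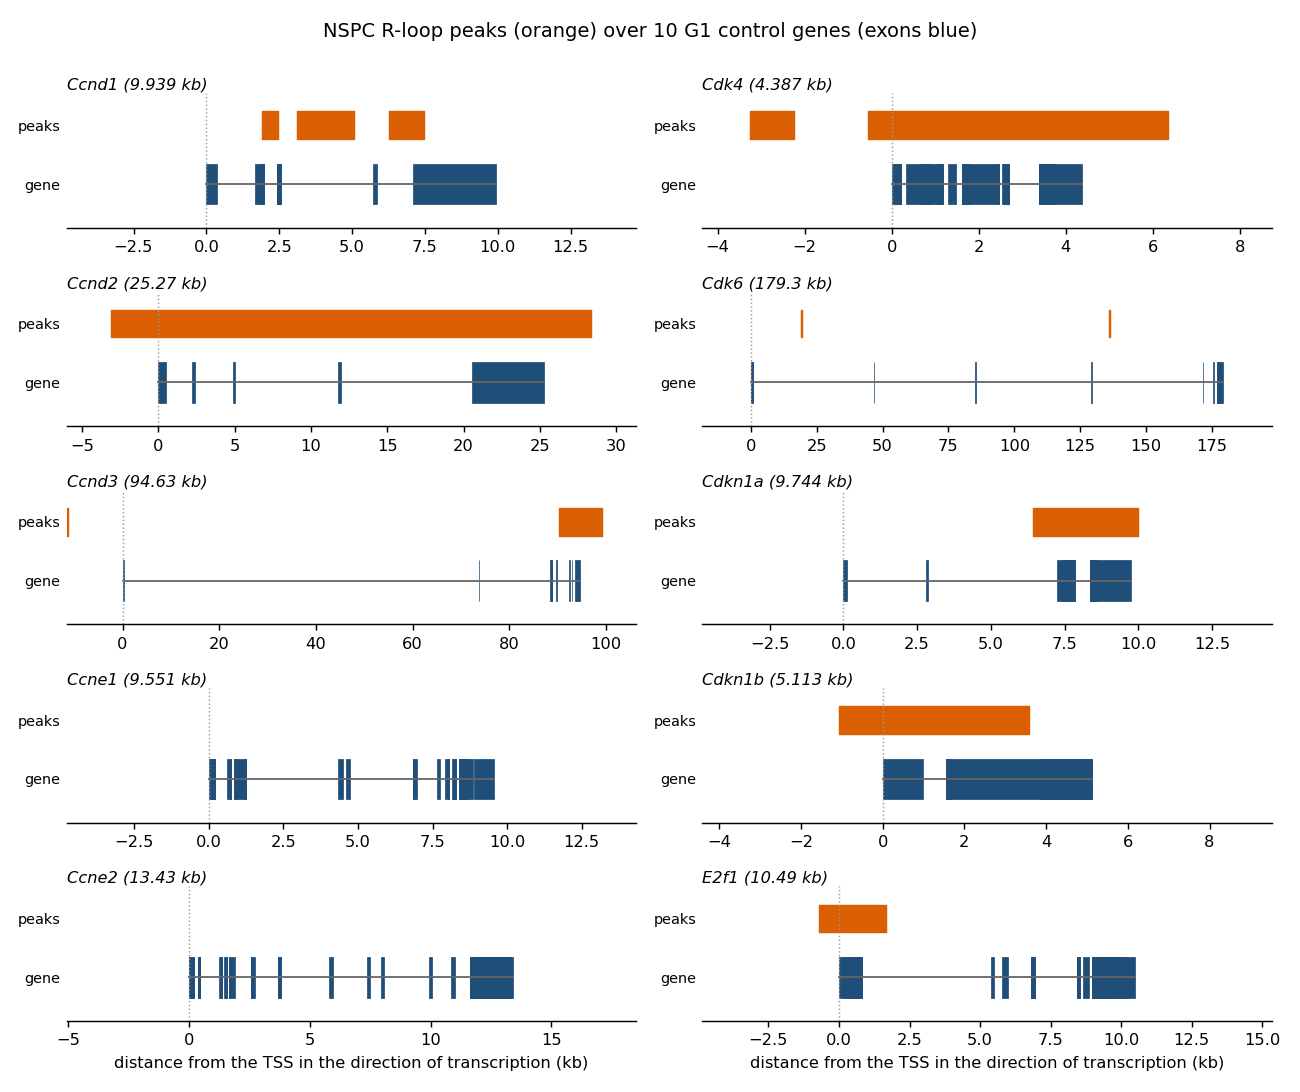
R-loop peaks (orange) and annotated exons of any transcript (blue) of each of the 10 genes against distance from the TSS in kb, drawn in the direction of transcription, with a separate scale for each gene and a dotted line at the TSS. Ccnd2 and Cdk4 lie wholly under 1 peak, no peak falls in the drawn range of Ccne1 and Ccne2, and the peaks drawn left of Cdk4 and Ccnd3 lie more than 2 kb outside the genes and were not assigned.

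The D-type cyclin genes, which link growth factor signals to the cell cycle, all overlapped peaks but in 3 different arrangements. Ccnd2 (ENSMUSG00000000184), the D-type cyclin known for its role in neural progenitor expansion, lies on the minus strand at chr6:127075797-127101066 and is 25.27 kb long. A single peak of 31.42 kb at chr6:127072726-127104148 covered all of it, from 3082 bp upstream of the TSS to 3071 bp beyond the TES. It ranked 14 of 22132 by width. Of its bases within the gene 5701 were exonic and 19569 intronic. Ccnd2 was the longest of the 404 protein-coding genes covered over their whole length, which had a median length of 3.06 kb. The same peak overlapped the start of the long non-coding RNA gene 9330179D12Rik on the plus strand, so the strand on which the hybrid lay cannot be told from the position. The next peak stood 35.81 kb away.

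Ccnd1 (ENSMUSG00000070348) lies on the minus strand at chr7:152115836-152125774, is 9.939 kb long and had 3 separate peaks, which together covered 37.63% of it. The peak nearest to the TSS, at chr7:152123305-152123861, began 1913 bp downstream of it and was 0.557 kb wide, reaching over exons 2 and 3. The widest, 1.979 kb at chr7:152120704-152122682, was wholly intronic. The third, 1.204 kb at chr7:152118312-152119515, reached into exon 5, the last exon, with 365 exonic bases, of which 162 were coding. Both the TSS and the TES were outside peaks, and no further peak was listed within 185.1 kb of the gene.

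Ccnd3 (ENSMUSG00000034165) is 94.63 kb long and lies on the plus strand at chr17:47642000-47736632. Its peak of 9.001 kb at chr17:47732199-47741199 lay at the 3′ end, over exons 5 to 7, and covered 4.685% of the gene. Of the peak 4434 bases were inside Ccnd3 and 4567 beyond its TES, where Bysl (ENSMUSG00000023988), a ribosome biogenesis gene, is transcribed in the opposite direction and ends inside Ccnd3. A peak over such convergent ends cannot be assigned to 1 of the genes. The TSS of a shorter Ccnd3 transcript lay 1783 bp upstream of this peak and thus outside it.

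The E-type cyclins, which drive CDK2 at the start of S phase, were without peaks. Ccne1 (ENSMUSG00000002068, chr7:38883003-38892553, minus strand) is 9.551 kb long, and the nearest peak lay 12.39 kb upstream at chr7:38904945-38905909. Ccne2 (ENSMUSG00000028212, chr4:11118498-11131926, plus strand) is 13.43 kb long, and the nearest peak lay 11586 bp upstream at chr4:11101675-11106912. Peaks were present in the surroundings, with 3 within 100 kb of Ccne1 and 5 within 100 kb of Ccne2. For comparison, between 2 and 10 peaks were found within 100 kb of the other 8 genes, those inside the gene included. Transcription was not measured in this list, and its part in the lack of peaks was not tested.

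The kinase partners of the D-type cyclins differed widely. Cdk4 (ENSMUSG00000006728) is 4.387 kb long on the plus strand at chr10:126500590-126504976. A peak of 6.903 kb at chr10:126500037-126506939 covered all 8 exons, from 553 bp upstream of the TSS to 1963 bp beyond the TES. It also overlapped Tspan31 (ENSMUSG00000006736), a tetraspanin gene that converges on Cdk4 from the other strand. The peak covered most of Tspan31, at chr10:126504373-126507317. As with Ccnd3 and Bysl, it cannot be assigned to 1 of the genes. Cdk6 (ENSMUSG00000040274), in contrast, is 179.3 kb long on the plus strand at chr5:3343893-3523218, and its 2 peaks covered 0.5850% of it. The peak at chr5:3362761-3363133 was 0.373 kb wide and lay 18868 bp into the gene, and the peak at chr5:3479664-3480339 was 0.676 kb wide and lay 135771 bp into it. Both were wholly intronic and were among the narrow peaks of the list, with 7.47% and 27.8% of peaks narrower.

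The inhibitor genes carried their peaks at opposite ends. Cdkn1b (ENSMUSG00000003031), which encodes p27, is 5.113 kb long on the plus strand at chr6:134870419-134875531. Its peak of 4.636 kb at chr6:134869358-134873993 began 1061 bp upstream of the TSS, reached over exons 1 and 2 and covered 69.92% of the gene. Cdkn1a (ENSMUSG00000023067), which encodes p21 and is a known target of p53, is 9.744 kb long on the plus strand at chr17:29227924-29237667. Its peak of 3.536 kb at chr17:29234366-29237901 began 6442 bp downstream of the annotated TSS, covered 33.89% of the gene and ended 234 bp beyond it, with 477 coding bases inside. This peak held the end of each of the 3 annotated transcripts, and whether it also held a start depended on the transcript. It lay 3649 bp downstream of the TSS of Cdkn1a-001, but the TSS of the shorter Cdkn1a-002 was inside it.

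E2f1 (ENSMUSG00000027490), the founding member of the E2F family, is 10.49 kb long on the minus strand at chr2:154385143-154395628. Its peak of 2.384 kb at chr2:154393951-154396334 reached from 706 bp upstream of the TSS over exon 1 into the following intron and covered 16.00% of the gene. This peak was the richest in GC of the 11, at 61.5%, and 96.3% of all peaks had a lower value. The peak stopped 1677 bp after the TSS, and no other lay within 42.00 kb of the gene.

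**Figure D2:**
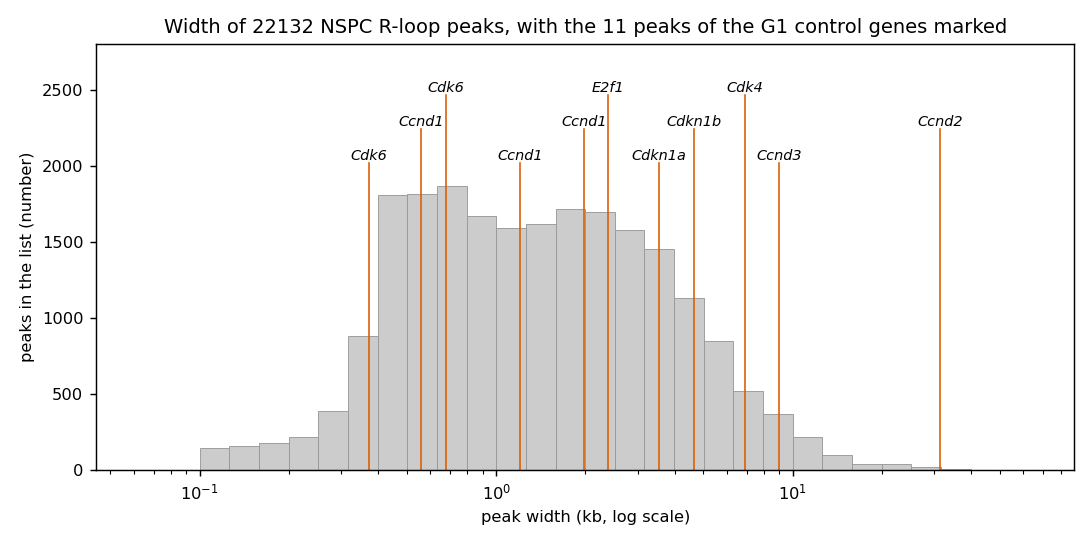
Number of peaks in the list by peak width in kb on a log scale (grey bars), with an orange line for each of the 11 assigned peaks, whose heights only separate the labels. The lines reach from 0.373 kb in Cdk6 to 31.42 kb in Ccnd2.

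The 11 peaks had a median width of 2.38 kb, and the median of the whole list was 1.32 kb. Their widths differed far more from each other than these medians did. The Ccnd2 peak alone made up 50.1% of the 62.7 kb they covered together, and the peaks of Ccnd3 and Cdk4 followed, with 97.4% and 95.1% of peaks narrower. Only 1.94% of peaks were 10 kb or wider. By share of the gene covered, the order was Ccnd2 and Cdk4, then Cdkn1b, Ccnd1, Cdkn1a, E2f1, Ccnd3 and Cdk6, with a median of 24.9% over the 10 genes. The median over all protein-coding genes was 0% and that over genes with a peak was 10.4%. Without replicates it is unknown how far neighbours in this order, such as Ccnd1 and Cdkn1a, would change places. The order also depends on the gene limits used. The share of Ccnd3 was taken over 94.63 kb, the length of its longest transcript. Its shorter protein-coding transcript, at chr17:47730416-47736632, contains all 4434 bases of the peak that lie inside the gene. Over that transcript the share would be much larger and Ccnd3 would stand higher in the order.

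Base composition around the TSS was then compared. GC content within 2 kb of the TSS had a median of 56.0% over the 10 genes and 48.0% over all protein-coding genes, and it was above the latter in each of the 10, from 48.1% in Cdkn1a to 57.8% in Ccnd2. GC skew, the difference of G and C over their sum, was taken on the coding strand over the first 1 kb of the gene. Its median was 0.0887, compared to 0.0390 over all protein-coding genes. It was highest in Ccnd3 and Cdkn1a, at 0.167 each, whose TSS were outside peaks. In both genes this TSS is the start of the longest transcript. Other protein-coding transcripts start further downstream, in Cdkn1a-002 inside the peak, and skew was not taken there. Among the genes with the TSS in a peak it was 0.143 in Cdk4, 0.0310 in E2f1, 0.00829 in Cdkn1b and -0.0252 in Ccnd2. Over all protein-coding genes the median skew was 0.0649 where the TSS was in a peak and 0.0345 where it was not. Of the 4 genes with a peak at the TSS, 3 had the lowest skews of the 10 over this window. The values depended on the window, since over the first 2 kb the skew was 0.0345 in Cdkn1b and 0.0563 in E2f1. Over that window E2f1 was above Ccne1, at 0.0422, and Ccnd1, at 0.0516, and was no longer among the 3 lowest.

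**Figure D3:**
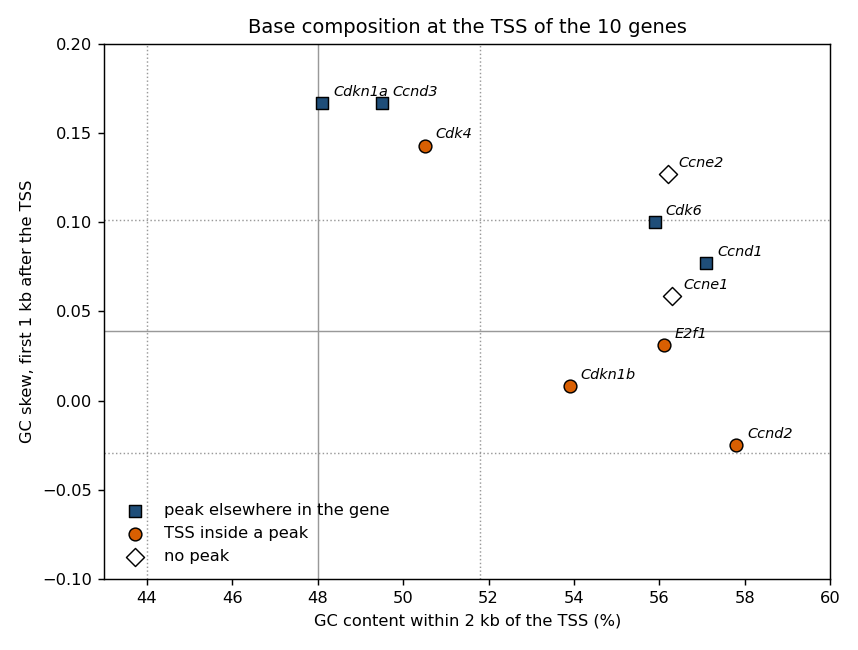
GC skew over the first 1 kb of each gene against GC content in percent within 2 kb of the TSS, with solid grey lines at the medians and dotted lines at the quartiles of all protein-coding genes. Genes with the TSS in a peak (orange circles) range from -0.0252 to 0.143 in skew and include the 3 lowest values of the 10, while the genes with a peak elsewhere (blue squares) or with none (open diamonds) lie between 0.0587 and 0.167.

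The E-type cyclin genes, which had no peak, were described by the same measures. Their skew was 0.0587 in Ccne1 and 0.127 in Ccne2, and in Ccne2 it was higher than in 83.2% of protein-coding genes. The observed over expected ratio of CpG within 500 bp of the TSS, a measure of CpG islands, was 0.915 and 0.968, and the median over genes with the TSS in a peak was 0.775. The ratio was alike in E2f1, at 0.948, and Cdkn1b, at 0.905, both with the TSS in a peak. The first 1 kb of Ccne1 held 40 runs of 3 or more G on the coding strand and that of Ccne2 held 37, more than in any of the 8 genes with a peak, where the number ranged from 18 to 30. Motifs of 4 such runs with loops of 1 to 7 bases can fold into G-quadruplexes. They were counted by start position, so overlapping starts within the same G-rich tract count separately. There were 3 such starts in Ccne1 and 6 in Ccne2, and 0 or 1 in each of the others. Separate tracts were not counted.

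Within the peaks, G runs on the coding and the template strand differed little in the peaks of Ccnd2, Cdk4 and Cdkn1b. The Ccnd2 peak held 514 runs on the coding and 511 on the template strand and had a skew of 0.0234, although its upstream stretch shown above is nearly free of C. A stretch with the reverse composition, 6 G and 38 C, lay further upstream in the same peak at chr6:127103463-127103522, and capitals here mark runs of 3 or more C.
Ccnd2 upstream: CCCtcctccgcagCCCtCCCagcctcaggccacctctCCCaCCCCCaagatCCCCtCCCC

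The counts per kb were also alike in Cdk4, at 15.6 on both strands, and in Cdkn1b, at 15.3 and 15.7. In Cdkn1b the starts of motifs of 4 runs were unequal, however, with 13 on the coding strand and 1 on the template strand. Overlapping starts are again counted separately. Runs were more frequent on the coding strand in Ccnd3, at 20.8 per kb and 18.0 on the template strand, and in E2f1, at 26.8 and 20.1.

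Cdk6 was the exception. Neither of its peaks held a run of 3 or more G on the coding strand, while the template strand held 19 in the peak nearer to the TSS and 7 in the other. The skew was -0.586 and -0.812, larger in size than in 91.1% and 97.7% of all peaks. These peaks are narrow, at 0.373 and 0.676 kb, and were not compared with peaks of like width. In the distal peak 276 bases, or 40.8%, lay in repeats of CA or TG of at least 20 bases, as in the stretch shown above, and 27.1% of all peaks contained such a repeat. The part of repeats in the calling of this peak was not tested. Ccnd1 had a smaller difference of the same direction in the peak nearest to the TSS, with a skew of -0.132 and 10.8 runs per kb on the coding and 25.1 on the template strand.

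**Figure D4:**
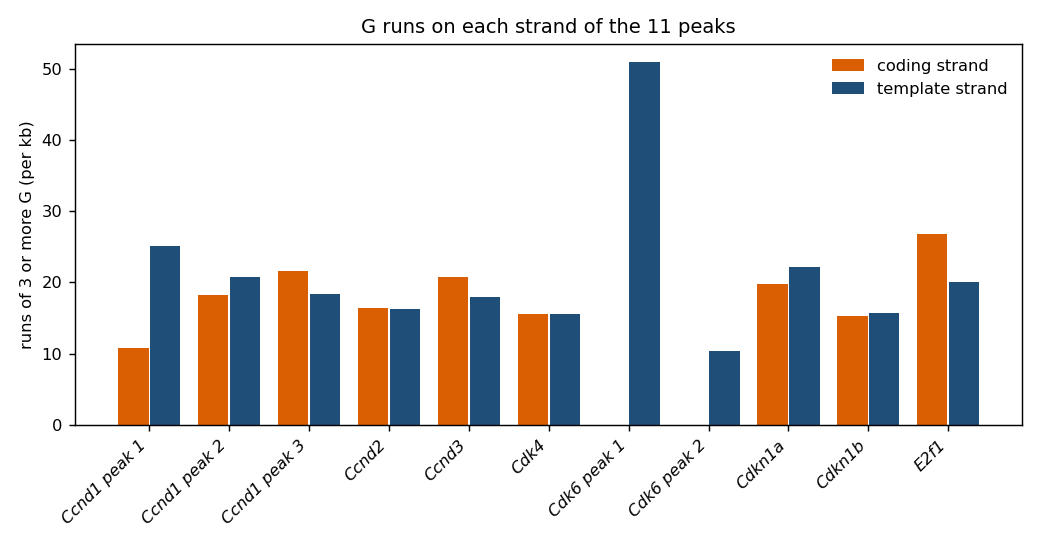
Runs of 3 or more G per kb on the coding strand (orange) and the template strand (blue) of each of the 11 assigned peaks. The bars are close in Ccnd2 (16.4 and 16.3) and Cdk4, and the coding strand bars are at 0 in both Cdk6 peaks.

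Since the DNA had been cut with 5 restriction enzymes before capture, cutting sites were located in the peaks. The Ccnd2 peak contained 34 sites, its outer edges were 80 and 3 bp from a site, and the peak therefore joins many restriction fragments. The E2f1 peak contained 0 sites, and its edges were 381 and 378 bp from the nearest one. The edges of the other 9 peaks were between 20 and 823 bp from a site. The part of fragment size in the extent of the peaks was not tested.

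The wider G1/S list held 26 other genes, and some of them, such as Ccnc, Ccng1 and Ccng2, lie outside the pathway described above. Of the 26, 14, or 53.8%, overlapped a peak, beside 39.6% of all protein-coding genes. The latter share includes genes not transcribed in NSPCs, so the difference cannot be read as an excess over transcribed genes. With a flank of 2 kb the count was 16, or 61.5%, beside 43.1%. The TSS was in a peak in 8, or 30.8%, beside 14.9%. Of the 7 E2F genes of this list 5 overlapped a peak, a number too small to be read against the shares of all genes. E2f4, which encodes a mainly repressive E2F, was covered over 85.1% of its length with both ends in a peak, and E2f3, an activator, had 6 peaks over 11.3 kb, or 14.4%. E2f6 was covered over 34.3% and E2f5 over 6.21%, with its TSS in a peak. Tfdp1, the dimerisation partner of the E2F proteins, had a peak of 22.5 kb at the TSS that covered 55.9% of it, while Tfdp2 had none. The retinoblastoma gene Rb1 had 3 peaks, including 1 at the TSS, over 2.90% of its 142.2 kb. The TSS was also in a peak in Fbxw7, part of the ubiquitin ligase that degrades cyclin E, and in the cyclin G genes Ccng1 and Ccng2, which were covered over 30.9% and 21.8%. The A-type cyclin gene Ccna2 overlapped no peak, and neither did the cyclin E partner Cdk2, which had 1 within 2 kb. Of the 4 Cdkn2 genes, which encode inhibitors of CDK4 and CDK6 and the ARF protein, 1 overlapped a peak. Their median length was 5.53 kb, and 22.2% of protein-coding genes under 10 kb overlapped a peak. This number is also too small to be read against the shares. The gene that did overlap was Cdkn2b, with 23.7% covered at its 3′ end. No gene of this list was covered over its whole length, and 1.81% of all protein-coding genes were.

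**Figure D5:**
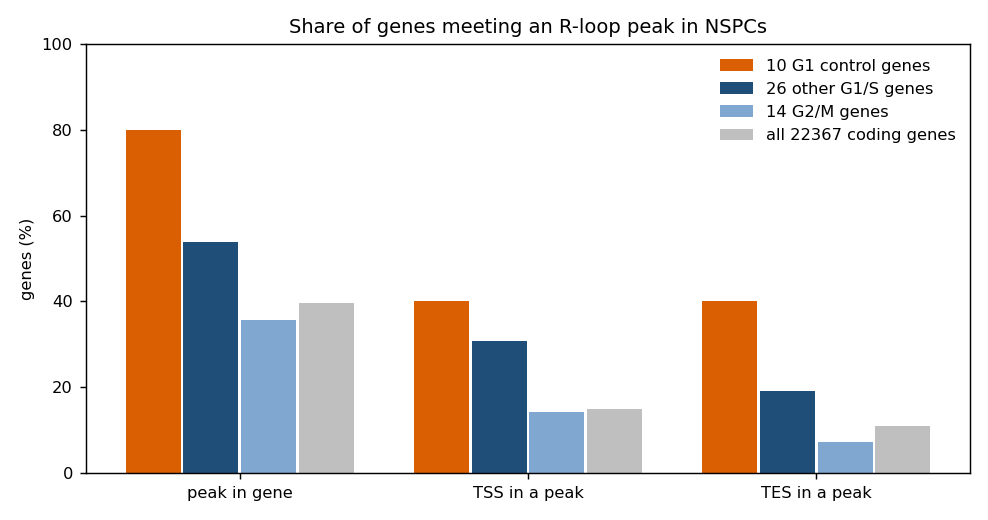
Percent of genes that overlap a peak, have the TSS in a peak or have the TES in a peak, for the 10 G1 control genes (orange), the 26 other G1/S genes (dark blue), 14 G2/M genes (light blue) and all 22367 protein-coding genes (grey). The bars have no error since there was 1 list, and the orange bars of 80.0% and 40.0% stand for 8 and 4 genes.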

How the data were processed

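DRIP-seq reads were, per the labels and the methods, trimmed with Trim Galore 0.6.6, aligned to mm9, freed of duplicates and used by the authors to call peaks with a Hidden Markov Model. The deposited list holds peak positions in base pairs and no other unit. It stems from 9 DRIP reactions of 3 biological replicates, and the rule by which peaks of the replicates were merged into 1 list is not given in the sources used here. Starts were converted from counting at 0 to counting at 1. Peaks were compared with GENCODE M1 gene limits at an overlap of at least 1 bp. A TSS or TES is the first or last base of the gene. Exon numbers follow the longest protein-coding transcript, and exonic bases any transcript. Composition was computed from the mm9 sequence. The wider lists are Cdk2, Ccna2, Cdkn1c, Cdkn2a to Cdkn2d, Rb1, Rbl1, Rbl2, E2f2 to E2f8, Tfdp1, Tfdp2, Cdc25a, Skp2, Cks1b, Fbxw7, Ccnc, Ccng1 and Ccng2, and for G2/M Ccnb1, Ccnb2, Cdk1, Cdc25b, Cdc25c, Plk1, Aurka, Aurkb, Wee1, Bub1, Bub1b, Cdc20, Mad2l1 and Ccnf. The genes and lists were chosen with earlier results of these data known. Named from the lists are the 5 genes of each with most bases covered and all with the TSS in a peak, and the others named were chosen after their values were seen. The overlap step was tested on simulated data. Python 3.11.15, numpy 2.4.6 and matplotlib 3.10.9 were used. The input library was not analysed here.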

Additional observations from a re-analysis of the deposited data

How the results depend on the processing

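Of the counts over the 10 genes, the counts over the lists and the median share covered, 38 values were recomputed under the alternatives, and all 38 were within 1.5 times the reported value. Single genes changed more. With peaks of at least 1 kb alone, Cdk6 lost both peaks and 7 of 10 genes overlapped a peak. With the peak midpoint required inside the gene, Ccnd3 was lost and the count was again 7. With at least 500 bp inside the gene, Cdk6 kept 1 peak. With a flank of 5 kb, Cdk4 had 2 peaks in place of 1. With the TSS of any transcript, 5 genes had a TSS in a peak in place of 4. Over the first 2 kb in place of 1 kb, the skew kept its sign in 10 of 10 genes and moved to -0.0499 in Ccnd2, 0.0741 in Ccnd3, 0.0345 in Cdkn1b and 0.0563 in E2f1. Ccne1 and Ccne2 had no peak under any of these settings. No paired analysis was possible because 1 peak list, without values for replicates, was analysed, and for the same reason no replicate could be left out. The limits of depth cannot be stated, since the list holds no reads, and a gene without a peak may hold a signal that was not called.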

Other observations

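Genes of G2 and mitosis were counted in the same way, without a test. Of the 14 genes listed, 5 overlapped a peak, or 35.7%, near the 39.6% of all protein-coding genes. The latter share includes genes not transcribed in NSPCs. The TSS was in a peak in 2, or 14.3%, near the 14.9% of all protein-coding genes. Cdc20, an activator of the anaphase-promoting complex, had the largest share, with 52.3% of the gene covered and the TSS inside the peak. The cyclin gene Ccnf was covered over 13.8% and Aurka, a mitotic kinase gene, over 8.41%. Wee1, whose product inhibits CDK1, had a peak at the TSS and 4.37% covered. Cdk1, the mitotic kinase, was covered over 3.83%, at its 3′ end. The B-type cyclins Ccnb1 and Ccnb2 overlapped none, as did Cdc25b, Plk1 and Aurkb.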
